A study of Mus musculus with 55 samples.

Results

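The Serpina1 and Serpina3 cluster genes were followed through the livers of Collaborative Cross (CC) mice. The 9 members, taken by gene symbol from 37620 genes in the files, were Serpina1a, Serpina1b, Serpina1c, Serpina1d, Serpina1e, Serpina3k, Serpina3m, Serpina3n and Serpina6. CC lines are recombinant inbred mice whose genomes mix the founder strains C57BL/6J, CAST/EiJ, A/J, WSB/EiJ, NOD/ShiLtJ, PWK/PhJ, 129S1/SvImJ and NZO/HlLtJ. The samples were livers of 55 untreated male mice of 29 lines kept in one animal facility, aged 8 to 11.9 weeks and weighing 12.8 to 38 g, with 1 mouse in 8 lines, 2 mice in 16 lines and 3 mice in 5 lines. Polyadenylated RNA was sequenced in pairs of short reads, and each mouse gave 20542671 to 33953036 fragments assigned to genes. The study did not treat any animal, so the comparison is that between lines, and line mates serve as replicates. Inbreeding was not complete in every line, so mates may differ in places. In the study's clustered plot of expression correlations between mice, which is not a plot of genotypes, the mice of IL-1052 and IL-2750 were intermixed. Line tests, shares of variance and extreme line means that changed most without these 2 lines are also given without them. Correlations are given with these lines included. The RNA came from whole liver, where fewer cells of a type and less RNA per cell cannot be told apart. The sum of 8 hepatocyte markers such as Alb and Apoa1 was 22464 to 73966 FPKM (fragments scaled by transcript length and by all mapped fragments), against 0.41 to 10.0 FPKM for 4 leukocyte markers.

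Serpins are protease inhibitors that present a flexible reactive centre loop to the protease as bait, and cleavage of the loop traps the enzyme. Hepatocytes secrete the clade A members into plasma. Serpina1 genes encode forms of alpha-1-antitrypsin, the main plasma inhibitor of neutrophil elastase. People carry a single such gene, whereas mice have a set of tandem copies whose number differs between inbred strains. The Serpina3 genes are the expanded mouse counterparts of alpha-1-antichymotrypsin. Serpina3k is also known as contrapsin or kallikrein-binding protein, and Serpina3n is an acute phase protein that inhibits granzyme B. Serpina6 encodes corticosteroid-binding globulin, the carrier of glucocorticoids in blood.

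All 9 genes lie on chromosome 12 (NCBIM37, the build of the files), Serpina6 and the Serpina1 genes on the minus strand and the Serpina3 genes on the plus strand. Serpina6 spans 104884840 to 104895422. Serpina1b (104966366 to 104976368), Serpina1d (105001804 to 105011802), Serpina1a (105091799 to 105104137), Serpina1c (105133136 to 105143097) and Serpina1e (105185141 to 105197185) follow it. Serpina3k (105576696 to 105583951), Serpina3m (105625374 to 105632467) and Serpina3n (105644939 to 105652539) lie beyond them.

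The stretch that codes for the reactive loop is printed because it is where a serpin meets its protease. In the 5 Serpina1 genes it is 81 bases of coding sequence in the last of 5 exons, read from the C57BL/6J genome of the build named above and given 5′ to 3′ on the coding strand. Capitals mark the 18 positions at which at least 1 of the 5 genes differs from another.
Serpina1a, chr12:105091960-105092040: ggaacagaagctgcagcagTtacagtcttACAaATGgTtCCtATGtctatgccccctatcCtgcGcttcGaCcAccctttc
Serpina1b, chr12:104966527-104966607: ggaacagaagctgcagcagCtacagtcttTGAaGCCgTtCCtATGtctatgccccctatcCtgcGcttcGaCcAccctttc
Serpina1c, chr12:105133297-105133377: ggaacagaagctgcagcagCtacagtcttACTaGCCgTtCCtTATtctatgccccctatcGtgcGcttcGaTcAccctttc
Serpina1d, chr12:105001965-105002045: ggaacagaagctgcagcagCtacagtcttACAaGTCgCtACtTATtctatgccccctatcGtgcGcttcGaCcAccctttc
Serpina1e, chr12:105185303-105185383: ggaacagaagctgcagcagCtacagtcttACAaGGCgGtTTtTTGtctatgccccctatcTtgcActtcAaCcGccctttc

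In the Serpina3 genes the same part is longer and differs over most of its length, with capitals marking what lies between the shared ends.
Serpina3k, chr12:105583479-105583562: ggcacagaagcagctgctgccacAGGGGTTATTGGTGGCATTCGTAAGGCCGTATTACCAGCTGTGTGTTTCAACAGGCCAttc
Serpina3m, chr12:105631979-105632068: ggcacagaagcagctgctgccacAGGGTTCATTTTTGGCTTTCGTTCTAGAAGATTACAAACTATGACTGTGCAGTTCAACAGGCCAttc
Serpina3n, chr12:105651658-105651747: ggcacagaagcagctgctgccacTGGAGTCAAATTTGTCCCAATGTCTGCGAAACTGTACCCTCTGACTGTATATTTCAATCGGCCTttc

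Outside the loop the Serpina1 genes are close to identical, and this limits what short reads can tell. Their coding sequences were 96.3% to 98.5% identical over 10 pairs, against 83.4% to 91.7% over the 3 pairs of Serpina3 genes. Of all runs of 50 bases in the main transcript, the share found in no other gene's coding transcript was 27.8% for Serpina1a, 26.7% for Serpina1c, 52.0% for Serpina1d, 55.0% for Serpina1b and 62.1% for Serpina1e. It was 80.9% for Serpina3m, 82.9% for Serpina3k, 93.3% for Serpina3n and 100% for Serpina6. Serpina1a and Serpina1c shared 69.2% of these runs with each other. Fragments from such runs were divided among the paralogs by the estimation model against the C57BL/6J reference, so levels of single Serpina1 genes are uncertain in lines that carry other founder alleles, and the part of this in the results below was not tested.

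The promoters of the Serpina1 genes are also close to identical where they align. Promoter windows (250 bases before to 50 after the start site, RefSeq, GRCm38.p6) were matched for 6 members, the 5 Serpina1 genes and Serpina3n. Between pairs of Serpina1 genes the aligned bases of these windows were 91.7% to 98.4% identical. Gaps are left out of these values. Pairs with Serpina1e had 102 to 124 gap bases, and the other pairs had 4 to 24.

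Among the most abundant liver transcripts, the members ranked from place 16 (Serpina3k) to place 528 (Serpina6) by mean FPKM. Serpina3k had the highest level, at 7488 ± 1256 FPKM (SD, n = 29 line means), followed by Serpina1b at 5385 ± 1670, Serpina1a at 5157 ± 2104, Serpina1c at 4779 ± 1803 and Serpina1e at 4233 ± 4140 FPKM. The means of these 4 Serpina1 genes lay closer to each other than the larger SD of each pair, and Serpina3k lay beyond the SDs of Serpina1a, Serpina1b and Serpina1c but within that of Serpina1e. Serpina1d was at 1951 ± 668 FPKM, within the wide spread of Serpina1e, and Serpina3m (427 ± 296 FPKM), Serpina3n (307 ± 253 FPKM) and Serpina6 (154 ± 80.9 FPKM) formed the low end, with neighbours closer than the larger of their SDs. Together the 9 genes made up 2.30% to 5.76% of the summed TPM (transcripts scaled to a fixed total) in a mouse, with a median of 4.08%.

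**Figure D1:**
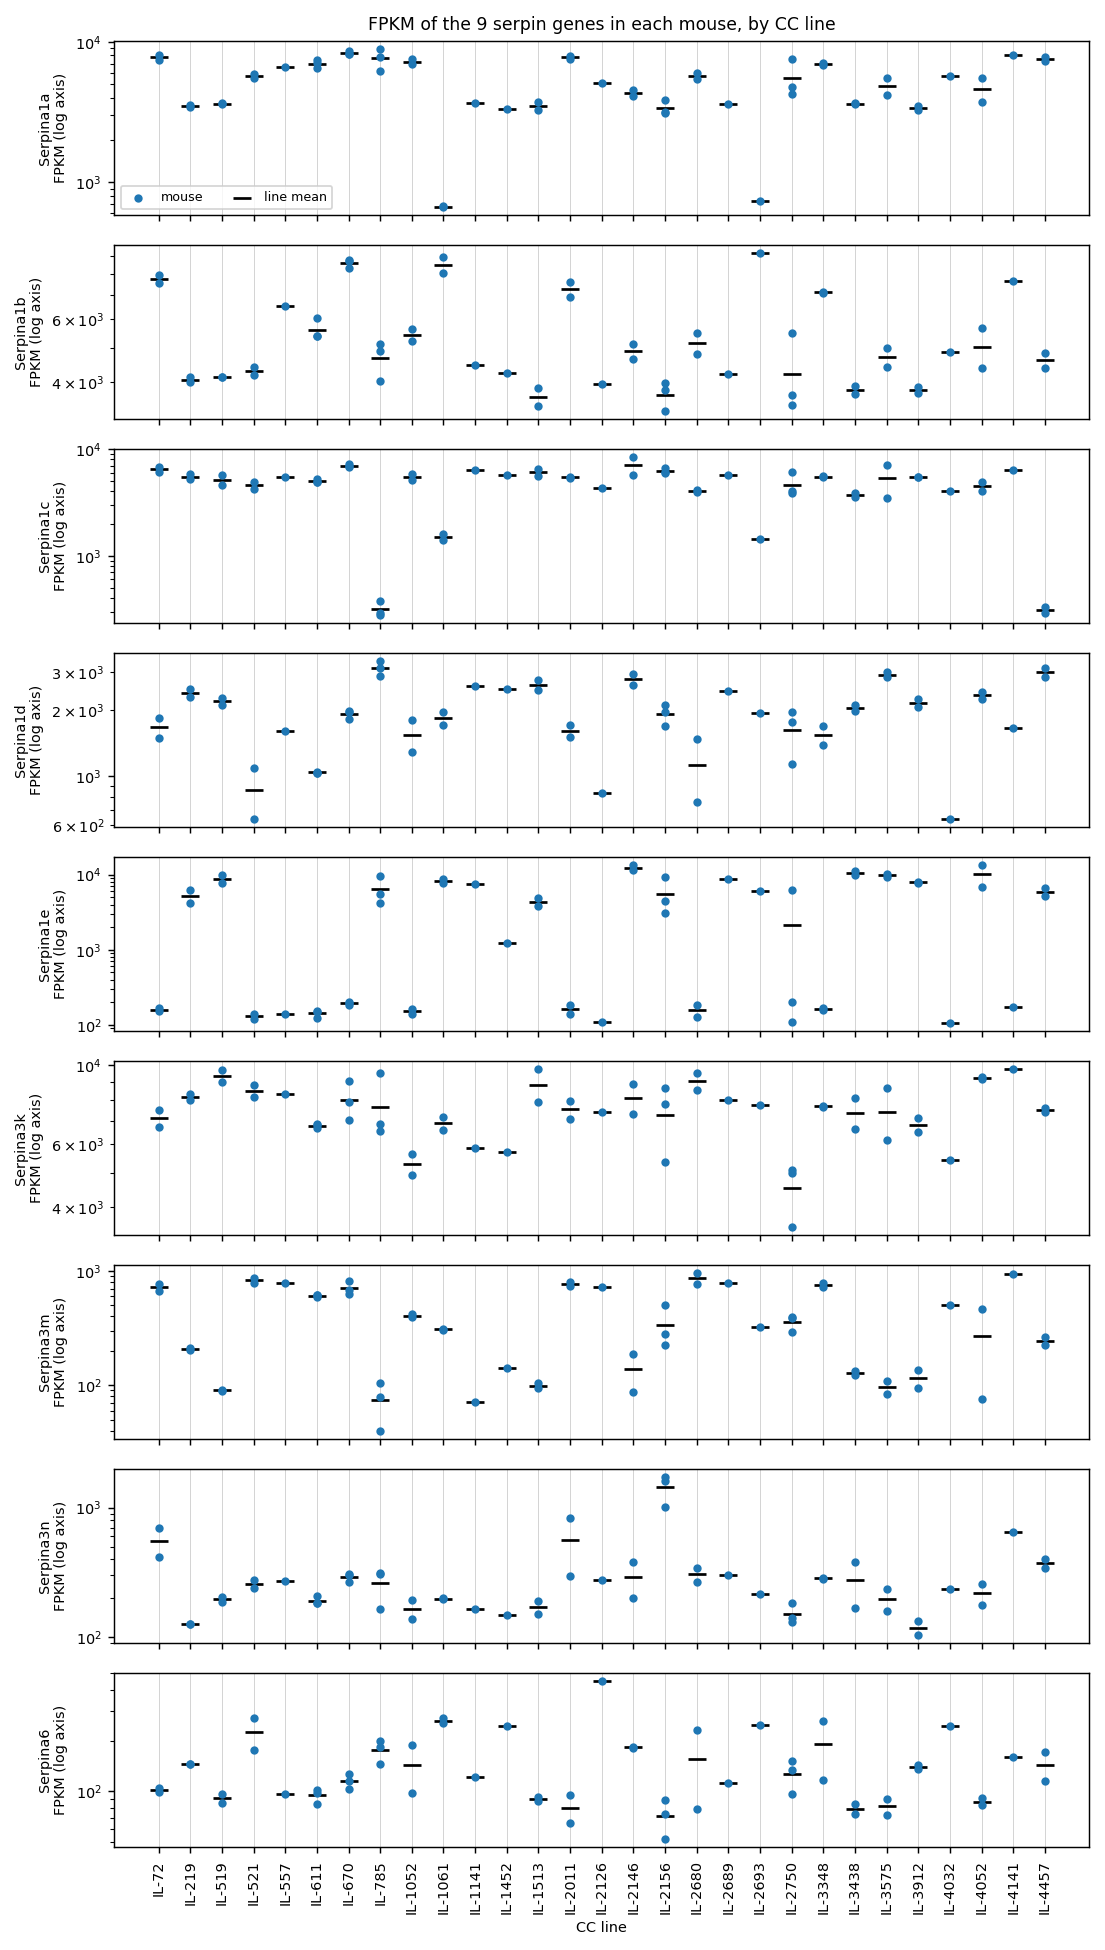
FPKM (log axis) of each member in 55 mice, with 1 column per CC line, points for mice and a dash for the line mean. Serpina1e lies at 105 to 205 FPKM in 24 mice and at 1247 to 13545 FPKM in 31, Serpina1a drops in IL-1061 and IL-2693, Serpina1c drops in IL-785 and IL-4457, and Serpina3n is highest in IL-2156.

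The first question was whether lines differed in these total-expression traits. All 9 members differed among the 21 lines with at least 2 mice (edgeR quasi-likelihood F test on estimated counts of 47 mice, Benjamini-Hochberg adjusted p from 3.26e-13 for Serpina1c to 0.0254 for Serpina3k), but so did 88.5% of all 15285 genes tested, and the count by itself does not set the members apart. The size of the difference varied. Serpina1c and Serpina1a had F values above those of 99.2% and 98.8% of genes, Serpina3n, Serpina3m, Serpina1e and Serpina1b were above 94.3% to 95.4%, and Serpina1d and Serpina6 were above 79.0% and 75.7%. Serpina3k, at 15.7%, was among the genes that differed least. Its adjusted p rose to 0.171 without IL-1052 and IL-2750, and to between 0.0520 and 0.0786 when mouse 4268 or 4269 of IL-519 or mouse 4429 or 4430 of IL-2750 was left out, so the call on Serpina3k rests on these mice. For Serpina1e the adjusted p (edgeR) fell from 1.43e-08 to 2.21e-15 without IL-1052 and IL-2750.

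The share of variance between lines, an intraclass correlation of the study's rank-based scores, is given as a description. It was highest for Serpina1d at 0.875 and Serpina1a at 0.822, then 0.794 for Serpina3m, 0.791 for Serpina1e, 0.774 for Serpina1b, 0.697 for Serpina3n, 0.666 for Serpina1c, 0.645 for Serpina6 and 0.483 for Serpina3k. The median of the 9 was 0.774, against 0.592 over all 5949 traits. Without IL-1052 and IL-2750 the value of Serpina3k was 0.239 and that of Serpina1b was 0.878. Between its lowest and its highest line, the median member differed 12.1-fold, and the median trait whose lowest mean was above 0 differed 2.53-fold.

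Serpina1e had the widest range of the members, with a highest line mean 119 times the lowest. Its values fell into separate clusters, with a gap of 6.08-fold between 205 and 1247 FPKM. In 12 lines (IL-72, IL-521, IL-557, IL-611, IL-670, IL-1052, IL-2011, IL-2126, IL-2680, IL-3348, IL-4032 and IL-4141) every mouse was below the gap, and each of these line means was under 10% of the median line mean of 4379 FPKM. In 16 lines every mouse was above it. The lowest line was IL-4032, with 105 FPKM in its only mouse, and the highest was IL-2146, with 11396 and 13466 FPKM in its mice. The only mouse of IL-1452 had 1247 FPKM, the lowest value above the gap. Even the lowest mouse had 3230 estimated fragments of Serpina1e. This estimate can include fragments divided among the paralogs, so it does not show how many came from Serpina1e itself.

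One line held mice on both sides of the gap. In IL-2750, mice 4429 and 4430 had 205 and 108 FPKM of Serpina1e, while mouse 4431 had 6166 FPKM, a 57.0-fold difference between mates. This is a line whose mice are intermixed with IL-1052 in the study's plot of expression correlations. In the other lines, mates were close for most members. Mates differed by at least 2-fold in none of the 21 lines for Serpina1a, Serpina1b, Serpina1d and Serpina3k, in 1 line for Serpina1c, in 2 lines each for Serpina3n and Serpina6, in 3 lines for Serpina1e, IL-2750 included, and in 4 lines for Serpina3m.

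Serpina1a was low in 2 lines. Its FPKM was 663 and 683 in the mice of IL-1061 and 733 in the mouse of IL-2693, and the next mouse of any line had 3113 FPKM, 4.25 times as much. The highest line was IL-670, at 8342 ± 264 FPKM (SD, n = 3 mice). In the same 3 mice of IL-1061 and IL-2693, Serpina1b was 8090, 8946 and 9202 FPKM, and IL-2693 was the highest line for that gene. Serpina1b was lowest in IL-1513, at 3647 ± 308 FPKM (SD, n = 2 mice). Serpina1c was also low in these mice, at 1408 and 1609 FPKM in IL-1061 and 1425 FPKM in IL-2693.

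Serpina1c itself was lowest in 2 other lines. It was 290 and 334 FPKM in IL-4457 and 375, 293 and 276 FPKM in IL-785, all under 10% of the median line mean of 5418 FPKM, whereas mice of other lines had at least 1408 FPKM. Its highest line was IL-2146, at 8471 and 5749 FPKM. In the mice of IL-785 and IL-4457, Serpina1d had its highest line means, with 3375, 2869 and 3131 FPKM in IL-785, the highest line, and 3133 and 2832 FPKM in IL-4457. The lowest Serpina1d level, 634 FPKM, came from the mouse of IL-4032, the line that was also lowest for Serpina1e. Mates of IL-3575 differed in Serpina1c, at 3500 and 7089 FPKM, while their Serpina1b values were 4411 and 4985 FPKM.

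The next question was whether the paralogs kept their proportions. They did not. Their sum varied less than any of the 5. Summing genes that do not rise together lowers the relative spread by itself, and its part here was not tested. The summed FPKM of Serpina1a to Serpina1e ranged over lines from 14313 in IL-2126 (1 mouse) to 31536 ± 1347 in IL-2146 (SD, n = 2 mice), a ratio of 2.20, with a coefficient of variation over line means of 18.2%. The coefficients of the single genes were 31.0% for Serpina1b, 34.2% for Serpina1d, 37.7% for Serpina1c, 40.8% for Serpina1a and 97.8% for Serpina1e.

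Serpina1e made up 0.673% ± 0.00449 of the sum in IL-72 (SD, n = 2 mice) and 44.1% ± 1.22 in IL-3438 (SD, n = 2 mice). The share of Serpina1a went from 3.25% ± 0.193 in IL-1061 (SD, n = 2 mice) to 37.2% ± 0.778 in IL-611 (SD, n = 3 mice). The share of Serpina1b went from 15.5% ± 0.394 in IL-2146 to 47.3% in the mouse of IL-2693. Serpina1c took 1.44% ± 0.209 in IL-785 (SD, n = 3 mice) and 33.4% in the mouse of IL-1452, and Serpina1d took 4.12% in IL-4032 and 14.8% in IL-1452, both lines with 1 mouse. The make-up was close between mates in most lines, for example in IL-670, where Serpina1a was 31.7% to 32.3% of the sum in 3 mice. The share of variance between lines was 0.839 to 0.933 for the 5 shares. Without IL-1052 and IL-2750 that of the Serpina1e share was 0.912 rather than 0.839. In IL-4052 the 2 mates differed, with 48.2% and 27.3% of Serpina1e.

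**Figure D2:**
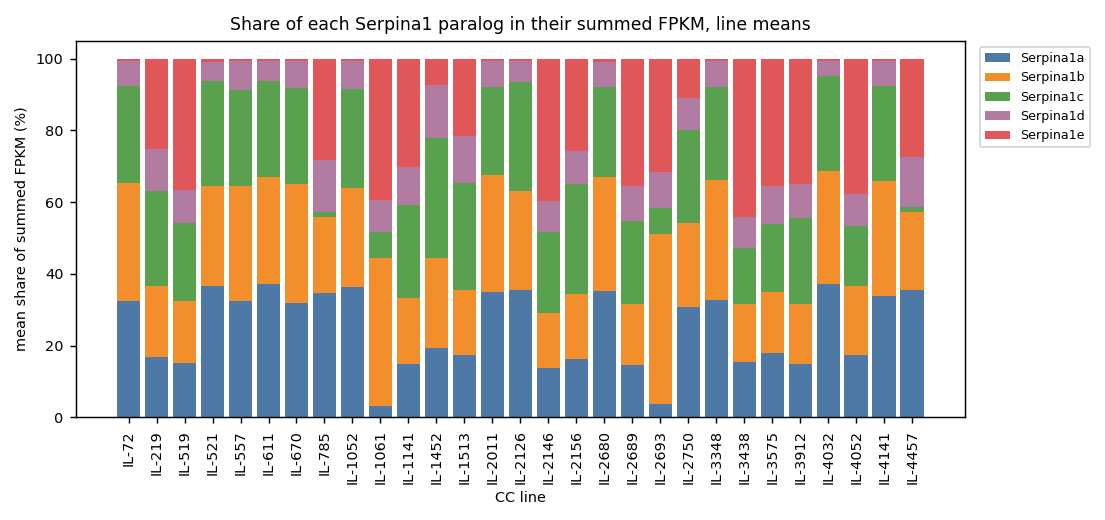
Mean share (percent, vertical axis) of each Serpina1 paralog in the summed FPKM of the 5, by CC line, as stacked bars. Serpina1e is 0.673% in IL-72 and 44.1% in IL-3438, Serpina1a is 3.25% in IL-1061, and Serpina1c is 1.44% in IL-785.

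Of the members, Serpina1e was the only gene with a second transcript of at least 5% mean share. Transcript ENSMUST00000085054 had 80.5% of the gene on average and ENSMUST00000122229 the remaining 19.5%. The first ranged from 13.6% in mouse 4430 of IL-2750 to 99.3% in mouse 4241 of IL-3348, both among the mice below the gap. In IL-2750 it was 24.5%, 13.6% and 83.0% in mice 4429, 4430 and 4431. The main transcript of Serpina1a, ENSMUST00000085056, had 97.1% to 99.8% in every mouse. The part of fragments shared with other Serpina1 genes in these proportions was not tested.

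Line means of the paralogs were then compared pair by pair, as Pearson's r of log2(FPKM + 1) over 29 lines with Spearman's rho beside it. These values are descriptions, since the pairs share fragments that were divided between them, and the 36 pairs share the same libraries. Pairs with Serpina1e get no pooled value, because its lines fall into clusters. Among Serpina1a to Serpina1d, Pearson's r ran from -0.24 (Serpina1c and Serpina1d, rho 0.12) to 0.15 (Serpina1a and Serpina1c, rho 0.07), with a median of -0.11 over the 6 pairs. The clusters of Serpina1e split these pairs as well. Over the 12 lines below its gap, r was 0.86 to 0.92 for all 6, and over the 16 lines above it, r ran from -0.76 (Serpina1a and Serpina1b) to 0.76 (Serpina1a and Serpina1d).

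Single lines decided some of these values. For Serpina1a and Serpina1b r was -0.09 and rho 0.49, and r was 0.80 without IL-1061 and IL-2693, where Serpina1a is low and Serpina1b high. For Serpina1a and Serpina1c r was 0.79 without IL-785 and IL-4457, where Serpina1c is lowest, and -0.30 without IL-1061 and IL-2693, where both genes are low. Deviations of 47 mice from the means of their own lines remove the difference between lines. They correlated at 0.83 for Serpina1a and Serpina1b, 0.60 for Serpina1b and Serpina1c and 0.36 for Serpina1a and Serpina1d. These values include the mates of IL-2750, which had 7558, 4788 and 4264 FPKM of Serpina1a and 5480, 3679 and 3463 FPKM of Serpina1b.

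Pairs with Serpina1e itself were taken within its clusters. Over the 12 lines below the gap, r of Serpina1e with Serpina1a, Serpina1b, Serpina1c and Serpina1d was 0.85, 0.84, 0.80 and 0.88. Over the 16 lines above it, these values were 0.02, 0.14, 0.02 and -0.06. Below the gap, then, the estimated Serpina1e level followed those of its paralogs over lines, and above it it did not. Below the gap Serpina1e made up only 0.673% (IL-72) to 0.963% (IL-2680) of the summed FPKM as line means. Of its runs of 50 bases, 62.1% were found in no other gene's coding transcript. The part of divided fragments in these values of r was not tested.

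**Figure D3:**
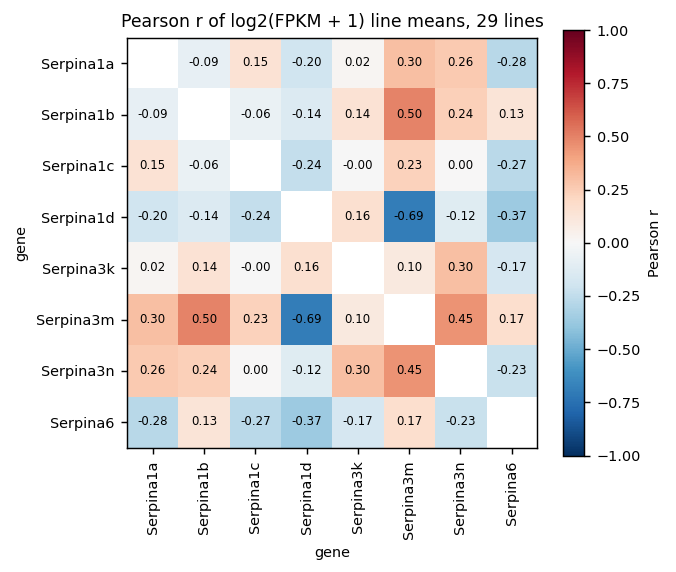
Pearson's r of log2(FPKM + 1) line means for pairs of 8 members over 29 lines, Serpina1e left out, on a colour scale from -1 to 1. The strongest value is -0.69 for Serpina1d and Serpina3m, and pairs of Serpina1a to Serpina1d lie between -0.24 and 0.15.

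Serpina3m varied 13.1-fold between line means, and over all 29 lines it tended to be high where Serpina1d was low. It was lowest in IL-1141, whose mouse had 71.9 FPKM, and highest in IL-4141, whose mouse had 943 FPKM. Its r with Serpina1d was -0.69 (rho -0.74) and was -0.73 without the 2 lines farthest from the median of Serpina1d. Within the clusters of Serpina1e this did not hold alike, with r of 0.20 over the 12 lines below the gap and -0.42 over the 16 above it. In IL-4141 Serpina1d was 1656 and Serpina1e 175 FPKM, whereas in IL-1141 they were 2584 and 7398 FPKM. Line IL-2689 departed from this, with 780 FPKM of Serpina3m beside 8763 FPKM of Serpina1e in its single mouse. Within the clusters of Serpina1e, its r with Serpina3m was 0.32 over 12 lines and -0.00 over 16 lines. Mates of IL-4052 had 75.3 and 464 FPKM of Serpina3m, with 13545 and 6887 FPKM of Serpina1e. Deviations within lines of Serpina1d and Serpina3m correlated at 0.06.

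**Figure D4:**
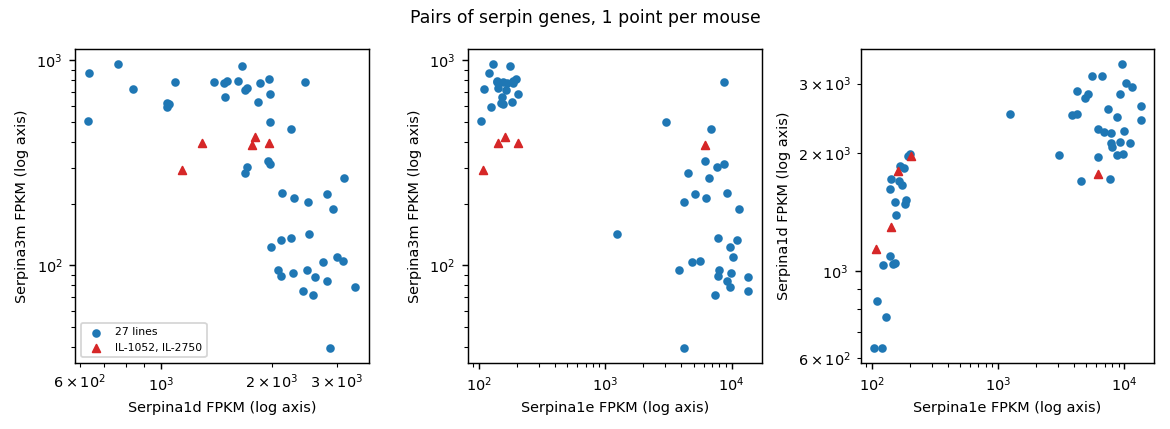
Pairs of members with 1 point per mouse and both axes as log FPKM; triangles are the mice of IL-1052 and IL-2750. Serpina3m is highest (963 FPKM) in a mouse with little Serpina1e, and 1 mouse (IL-2689) combines 780 FPKM of Serpina3m with 8763 FPKM of Serpina1e.

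The genes whose line means were most like those of Serpina3m were its neighbours. The top 3 of 10324 genes were Serpina3c (r = 0.94, rho 0.92), Serpina11 (0.77, rho 0.71) and Gm8893 (0.70, rho 0.67), all on chromosome 12. Serpina3c was lowest in IL-1141 (1.65 FPKM) and highest in IL-4141 (49.2 FPKM), the same lines as for Serpina3m. Of the 20 genes most like Serpina3m, 5 lay within 5 Mb of it, or 25%, while 0.446% of the genes compared did so. For the other members 0 to 2 of the 20 were within 5 Mb. Gm8893, which lies between Serpina1d and Serpina1a, was also second for Serpina1b (r = 0.62, rho 0.53). It split with the clusters of Serpina1e. Mice of the 12 lines below that gap had 999 to 1652 FPKM of Gm8893. Mice of the 16 lines above it had 0.58 (IL-1452) to 591 FPKM. Izumo4 (r = 0.74, rho 0.61) was first for Serpina1a and Ecd (0.63, rho 0.63) for Serpina1d. Gstz1 (r = 0.68) was first for Serpina1c and Uros (r = 0.59) for Serpina3k, but their rho was only 0.28 and 0.26.

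Serpina3k, the most abundant member, was also the steadiest. It ranged from 3511 to 9785 FPKM over mice, and its highest line mean was 2.16 times the lowest. The lowest was IL-2750, with 5001, 3511 and 5091 FPKM, and the highest was the mouse of IL-4141. Without IL-1052 and IL-2750 the lowest was IL-4032, at 5419 FPKM, and the ratio was 1.81. Over all 29 lines its means had an r of 0.10 (rho 0.21) with Serpina3m and 0.30 (rho 0.36) with Serpina3n. Within the clusters of Serpina1e these values differed. Over the 12 lines below the gap r was 0.96 with Serpina3m and 0.58 with Serpina3n. Over the 16 lines above it r was 0.10 and 0.05.

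Serpina3n, the acute phase member, was highest in IL-2156, with 1595, 1007 and 1727 FPKM in its 3 mice. No mouse of the other lines reached these values. The lowest line was IL-3912, with 135 and 104 FPKM. Among the other lines IL-2011 had the highest value, 834 FPKM in mouse 4274 against 296 FPKM in its mate. Mouse 4300 of IL-72 had 692 FPKM against 413 FPKM in its mate, and the mouse of IL-4141 had 646 FPKM. Serpina3n thus varied both between lines and, in some lines, between mates.

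Genes of the acute phase response, a set of plasma proteins made by the liver in inflammation, were compared with it. Of a list of 22, 17 had an r above 0.5 with Serpina3n over line means, among them Fgb (0.75, rho 0.59), Stat3 (0.74, rho 0.62) and Saa1 (0.72, rho 0.56), against 0.852% of all genes with mean FPKM of at least 1. The median r over the list was 0.64, and -0.02 over all genes. One line contributed much of this. IL-2156 had the highest line mean for 16 of the 22 genes, and without it 9 of 22 had an r above 0.5, with a median of 0.48, against 0.60% of all genes. Deviations within lines, over 47 mice, gave 10 of 22 above 0.5, with Itih4 at 0.87, Lcn2 at 0.78 and Hpx at 0.78, against 1.28% of all genes. As before, the 47 deviations are not independent. All 22 list genes also differed between lines in the edgeR test, near the share of all genes.

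**Figure D5:**
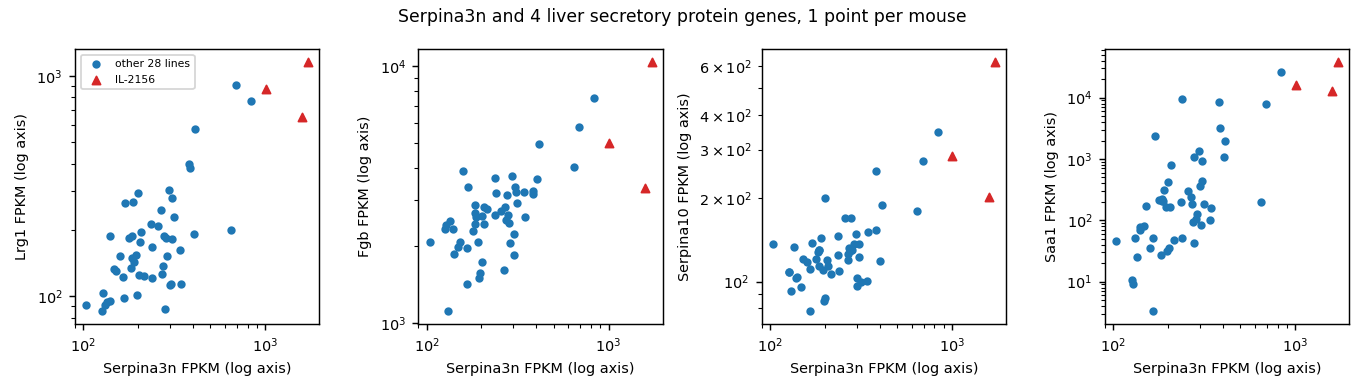
Serpina3n against Lrg1, Fgb, Serpina10 and Saa1 in 55 mice, with FPKM on log axes and the mice of IL-2156 as triangles. The highest values of Serpina3n, 1007 to 1727 FPKM, are those of IL-2156, where Saa1 has its highest line mean.

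The closest genes to Serpina3n were Lrg1, a leucine-rich glycoprotein secreted by the liver (r = 0.75, rho 0.54), then Fgb, the fibrinogen beta chain, and Serpina10, an inhibitor of coagulation factor Xa from the same gene cluster (0.74, rho 0.53). Lrg1 had 893 ± 253 FPKM and Serpina10 369 ± 223 FPKM in IL-2156 (SD, n = 3 mice). The 3 mice of that line had 22464 to 37191 FPKM of summed hepatocyte markers, against 32516 to 73966 FPKM in other lines, and 125 to 207 FPKM of summed cholangiocyte markers, against 6.38 to 134 FPKM. Summed Kupffer and macrophage markers were 64.6 to 275 FPKM there and 10.7 to 210 FPKM elsewhere. The part of these cell markers in the Serpina3n values was not tested.

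Serpina6 was highest in the mouse of IL-2126, at 452 FPKM, and lowest in IL-2156, at 71.3 ± 18.4 FPKM (SD, n = 3 mice), the line with most Serpina3n. Mates differed in IL-2680, at 230 and 79.3 FPKM, and in IL-3348, at 262 and 118 FPKM. Its line means had their highest r with Homer2 (0.76, rho 0.71), Acot4 (0.76, rho 0.67) and Acot3 (0.76, rho 0.63), the last pair being acyl-CoA thioesterases on chromosome 12. Deviations within lines of Serpina6 and Serpina1d had an r of -0.68 over 47 mice, IL-1052 and IL-2750 included. The 2 mates of a line deviate by equal and opposite amounts, so these 47 values are not independent. IL-2680 had the widest fold difference between mates for both genes, with 763 and 1482 FPKM of Serpina1d beside its 230 and 79.3 FPKM of Serpina6.

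Of a list of 16 other clade A serpins, 15 were in the files, 12 passed the filter on low counts and all 12 differed between lines, beside 88.5% of all genes. The most abundant were Serpina10 (median 126 FPKM, near the 115 FPKM of Serpina6), Serpina11 (75.3 FPKM) and Serpina7 (20.01 FPKM), the thyroxine-binding globulin. Serpina12, also called vaspin, had a median of 8.73 FPKM. Serpina1f, Serpina3b and Serpina3j had a median of 0 FPKM. Among 14 genes of a regulator list (factors of serpin transcription and genes of the growth hormone and glucocorticoid pathways), 12 differed between lines. This share was near that of all genes. Hnf4a (75.1 to 163 FPKM over mice) did, whereas Foxa1 (adjusted p = 0.312, edgeR) and Nr3c1, the glucocorticoid receptor (adjusted p = 0.0847, edgeR), did not pass. None of the 14 had an r above 0.5 with Serpina3n.

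Body weight and age were recorded for each mouse and tested for a slope of log2(FPKM + 1) over 29 line means. No member passed the limma test for weight in either direction, as was the case for 0% of all 10333 genes tested. At an unadjusted p under 0.05 there were 776 genes and 1 member, Serpina6, whose slope was -0.06 ± 0.02 (SE) log2 units per g (unadjusted p = 0.0344, adjusted p = 0.645, limma). With 55 mice and line as a random effect the unadjusted p of Serpina6 was 0.0565, and without IL-2156 it was 0.0898. Serpina3n had a slope of 0.05 ± 0.03 per g (adjusted p = 0.743, limma), and the heaviest mouse of all, at 38 g, was in IL-2156. For age the members called were also 0, as were 0% of all genes, with 619 genes and 0 members at an unadjusted p under 0.05. The steepest slope was that of Serpina1e, at -0.74 ± 0.49 log2 units per week (adjusted p = 0.871, limma).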

How the data were processed

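The authors aligned reads with Bowtie 2 and estimated gene and isoform levels with RSEM 1.2.18 on mm9 (NCBI37) and Ensembl transcripts; RSEM divides fragments that fit several transcripts. The deposited files give, per mouse, expected counts, TPM, FPKM and, per isoform, the percent of the gene (IsoPct). FPKM deposited by the authors were used for levels and line means, TPM as an alternative, and deposited expected counts, rounded, for the test of lines (edgeR 4.0.16 quasi-likelihood, TMM, filterByExpr; DESeq2 1.42.0 as an alternative). Slopes used limma 3.58.1 with a pseudocount of 1 on genes with mean FPKM of at least 1. The share of variance is a one-way intraclass correlation of van der Waerden scores after the study's rounding (maximum FPKM of at least 2, at least 12 levels). Scripts were tested on simulated data.

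Coordinates came from the NCBIM37 annotation. Symbols came from it and, for gene IDs it lacked, from a second list of gene names, and 37205 of 37620 gene IDs had a symbol. Each sample is 1 mouse. P-values were adjusted over all genes tested. Genes were named as follows: the 9 members, lists of neighbours, acute phase genes, regulators and cell markers, the extreme lines of each member with any line under 10% of the median, and the 3 genes most like each member. The members and lists were chosen with earlier results of these data known. Depth leaves little counting error for the members, the lowest having 1665 estimated fragments.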

Additional observations from a re-analysis of the deposited data

How the results depend on the processing

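The line effect was called for 8 or 9 of the 9 members in every alternative, and 8 to 9 with any of 47 mice left out. Of all genes tested, 54.8% (no filter) to 94.1% (at least 10 counts in every mouse) were called in the alternatives. With a mouse left out, 83.1% to 89% were, so the counts do not set the members apart. Serpina3k was the member that lost its call, at an adjusted p of 0.0866 with no filter and 0.171 without IL-1052 and IL-2750. With log2(FPKM + 1) in place of scores the median share of variance between lines rose from 0.774 to 0.856; left-out mice gave 0.756 to 0.789. The median r among Serpina1a to Serpina1d was -0.14 to -0.08 with any mouse left out. Signs turned for Serpina1a and Serpina1b in linear FPKM (0.191), as Spearman's rho (0.486) and without the mouse of IL-2693 (0.186), for Serpina1c and Serpina1d as rho (0.121), and for Serpina3k and Serpina3m over the 21 lines with mates (-0.145); the cause was not tested. The median share of variance of the composition was 0.872 to 0.920 and that of the Serpina1e isoform share 0.589 to 0.879 with a mouse left out, the last without mouse 4431 of IL-2750. No member passed for weight or age in any setting, the fit without IL-2156, chosen after seeing the data, included. No paired analysis was possible because each mouse belongs to 1 line and mice carry no shared replicate numbers. Depth did not limit the members; shared sequence limited the Serpina1 genes.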
